A study of Mus musculus with 22 samples.

Results

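The maternally methylated imprinted promoters described here are those of Peg3, Peg10, Mest, Plagl1, Kcnq1ot1, Snrpn, Grb10, Nnat, Zrsr1 and Impact. Their members are the CpG positions within 2 kb of any curated RefSeq transcription start site (TSS) of these 10 genes that were covered by at least 10 reads in all 22 samples. There were 393 such positions, of 1140639 covered in all samples over the genome, and each of the 10 genes had some. A position is 1 cytosine of a CpG on 1 strand, and neighbouring positions are often read by the same fragments, so positions are not replicates.

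ERRBS, a form of bisulfite sequencing enriched for CpG-rich fragments, was used on bulk mammary tissue of female mice of the FVB background. PyMT mice carried 1 copy of the polyoma middle T transgene under the MMTV promoter, which is active in mammary epithelium, and were sampled with hyperplasia at week 6 (n = 2), adenoma/MIN (mammary intraepithelial neoplasia) at week 8 (n = 3), early carcinoma at week 10 (n = 3) and late carcinoma at week 12 (n = 2). FVB females without the transgene were the age-matched controls, with 3 mice at each week. The question was whether promoters at which 1 parental allele is methylated kept that level through tumor progression.

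In genomic imprinting, the mother and the father pass on the same gene with different methylation, and the difference is kept in the cells of the body. At these genes the methylated copy is the maternal one, set in the oocyte. At most of them the unmethylated paternal copy is the one usually transcribed. A position methylated on 1 allele in every cell reads near 50%, whichever cell type the DNA came from. Grb10 is the exception in the group, because its main promoter lies apart from the imprinted region and is unmethylated on both alleles. In bulk tissue, a change in the share of a cell type and a change within each cell cannot be told apart.

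The samples held 1314077 to 1435757 positions each, at a mean coverage of 60.2 to 79.2 reads. One library stood apart: in PyMT week 8 replicate 1, the mean coverage of chromosome X was 0.473 of that of the autosomes, against 0.871 to 1.01 in the other 21 libraries. Its mean methylation at the 2975 X-linked positions near 50% in FVB was 18.3%, against 41.5 to 45.2% in the others. Its count of chromosome Y positions (235) lay within the 222 to 252 of the other libraries. At the imprinted positions it did not stand apart, with a mean of 43.8% at the 226 near-50 positions in a range of 40.1 to 44.9% over all 22 libraries. The cause was not tested. Adenoma/MIN results are given with and without this library where it matters.

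**Figure D1:**
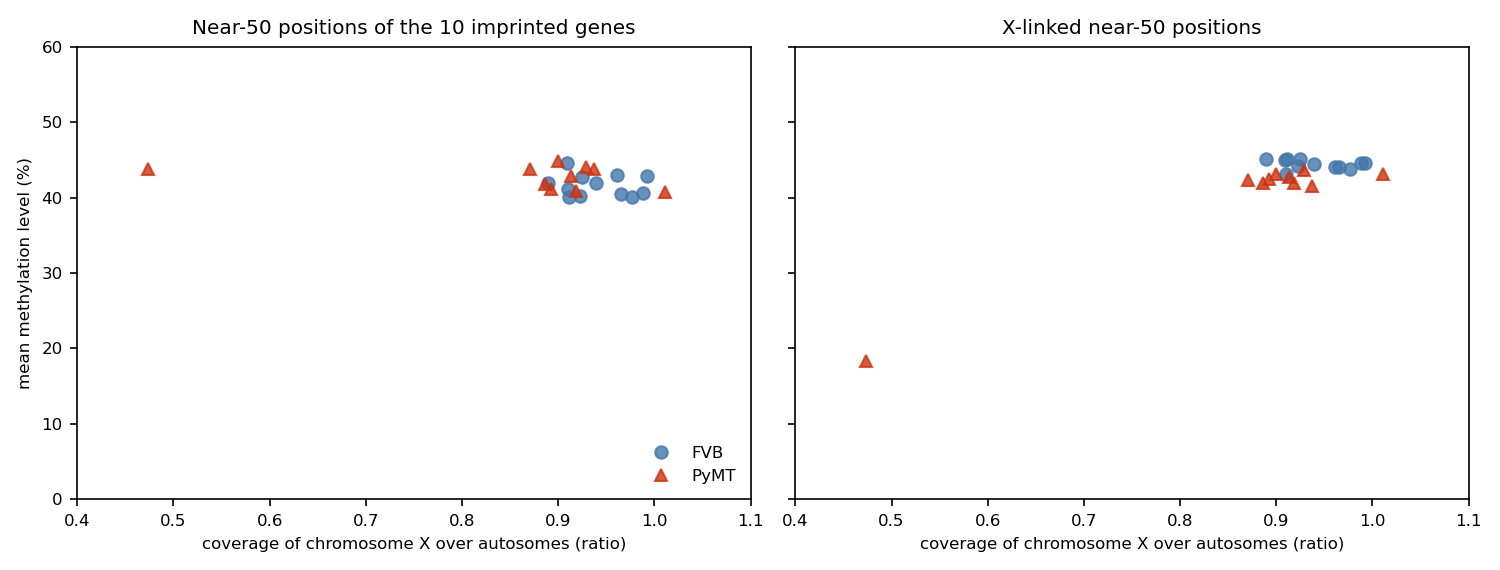
Mean methylation level (%) of the near-50 positions of the 10 imprinted genes (left) and of the X-linked near-50 positions (right) against the ratio of chromosome X to autosomal coverage, 1 point per sample, FVB as circles and PyMT as triangles. The PyMT week 8 library at a ratio of 0.473 lies at 18.3% on chromosome X and at 43.8% at the imprinted genes.

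The stretches of reference sequence (RefSeq GRCm38, plus strand) below show some of the CpGs compared. They are the densest windows of up to 150 bases that lie clear of coding and untranslated exons. None is printed for Peg3, Peg10, Zrsr1 and Impact, and the upstream Nnat, Snrpn and Mest positions described later lie outside them. Capitals mark CpGs with a position near 50% in FVB.
Grb10 intron, chr11:12026183-12026332: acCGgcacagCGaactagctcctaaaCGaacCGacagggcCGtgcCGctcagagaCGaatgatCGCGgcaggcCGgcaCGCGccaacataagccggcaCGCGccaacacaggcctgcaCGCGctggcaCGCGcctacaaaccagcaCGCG
Plagl1 and Hymai noncoding exon, chr10:13091040-13091189: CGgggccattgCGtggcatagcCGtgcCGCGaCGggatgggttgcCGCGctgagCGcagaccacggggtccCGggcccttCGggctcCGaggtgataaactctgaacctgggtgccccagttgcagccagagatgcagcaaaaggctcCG
Kcnq1ot1 noncoding exon, chr7:143295560-143295618: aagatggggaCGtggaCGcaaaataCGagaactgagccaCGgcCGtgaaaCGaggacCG
Snrpn intron, chr7:60004570-60004661: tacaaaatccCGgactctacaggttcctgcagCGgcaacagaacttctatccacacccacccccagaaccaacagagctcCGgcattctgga
Mest intron, chr6:30739244-30739334: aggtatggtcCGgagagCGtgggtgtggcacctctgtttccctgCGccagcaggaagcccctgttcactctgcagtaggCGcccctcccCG
Nnat intron, within Blcap, chr2:157561434-157561538: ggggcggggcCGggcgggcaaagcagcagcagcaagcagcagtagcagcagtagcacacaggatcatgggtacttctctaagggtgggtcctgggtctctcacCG
Over all samples, the positions in the Grb10 stretch had a mean of 40.3% in FVB and 40.7% in PyMT. Those in the Plagl1 stretch had 39.4% and 39.5%, in Kcnq1ot1 39.9% and 45.4%, in Snrpn 39.4% and 43.5%, in Mest 41.9% and 40.8%, and in Nnat 39.2% and 39.6%.

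In FVB the members carried the intermediate level that the imprint gives far more often than the rest of the genome did. Positions were called near 50% where the mean of the 12 FVB samples lay in 35 to 65%. This held for 226 of the 393 member positions (57.5%), against 6.17% of 1115690 autosomal positions and 12.0% of 24728 X-linked ones. The members just inside and just outside the window had 35.14% and 34.97% at its lower edge, and 61.0% and 67.3% at its upper edge. Gene means at near-50 positions all lay below 50%, from 38.4% in Plagl1 to 46.8% in Nnat.

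The genes differed in how many positions carried that level. All 8 positions of Peg3 did, as did 11 of 12 in Peg10, 10 of 13 in Mest, 37 of 48 in Plagl1, 15 of 19 in Kcnq1ot1, 10 of 14 in Snrpn, 17 of 29 in Nnat, 47 of 66 in Zrsr1 and 21 of 25 in Impact. Only 50 of 159 positions of Grb10 did, 46 of them inside an intron at chr11:12026185-12026881, while 107 had a mean below 20%. In Nnat all 12 positions outside the window lay in 20 to 35%, as did 16 of 19 in Zrsr1, all 11 in Plagl1 and all 4 each in Kcnq1ot1 and Impact. Snrpn had 3 positions above 80%, all upstream of a distant start site. Ranked by the number of near-50 positions, the autosomal genes in the first 9 ranks were Gnas (147), Fignl2 (66), Commd1 (51), Grb10 (50), Zrsr1 (47), Tnxb (46), Gm30189 (45), Gm13205 (39) and, tied at rank 9, Hymai, Papolb and Plagl1 with 37 each. Gnas is imprinted too, Commd1 hosts Zrsr1 in an intron and shares its 66 positions, and Hymai shares the 48 positions of Plagl1.

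To ask whether positions near 50% in FVB stayed there in PyMT, the near-50 set of each stage was chosen from the 9 FVB controls of the other 3 weeks, so that the controls compared took no part in the choice. At hyperplasia 172 of 226 positions (76.1%) had a PyMT mean inside the window, and 183 (81.0%) had a mean of the same-week controls inside it. The counts were 187 (78.9%) and 200 (84.4%) of 237 at adenoma/MIN, 183 (82.4%) and 172 (77.5%) of 222 at early carcinoma, and 191 (85.7%) and 203 (91.0%) of 223 at late carcinoma. Counted sample by sample, the mean share of positions inside the window differed between PyMT and FVB by -3.17, 5.63, -1.50 and 6.58 points at the 4 stages, each smaller than the larger of the SDs of the groups compared. The sign was not stable: it became -10 points at adenoma/MIN with a window of 40 to 60%, and 5.91 points at early carcinoma within 1 kb of a TSS. Other autosomal positions near 50% in the controls gave another picture, with 38.6, 39.7, 36.3 and 35.6% of them inside the window in PyMT, and 79.4, 79.1, 79.5 and 79.0% in the same-week controls.

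Single positions were tested by a logistic likelihood-ratio test on reads and called at q under 0.01 (Benjamini-Hochberg over all 1140639 positions) and a difference of at least 10 percentage points. The test takes reads as its units, and mice of a group varied more than reads do. Of the 393 member positions, 15 (3.82%) were called at hyperplasia, where 8.63% of all positions were. At adenoma/MIN 35 (8.91%) were called against 10.3%, at early carcinoma 22 (5.60%) against 12.8%, and at late carcinoma 23 (5.85%) against 13.0%. Allowing for overdispersion between mice, the member counts dropped to 3, 13, 7 and 9, and the shares of all positions to 3.41, 4.28, 7.62 and 7.67%. Without PyMT week 8 replicate 1, 34 (8.65%) were called at adenoma/MIN, against 10.15% of all positions. Other single samples moved the counts further, to 32 at hyperplasia without FVB week 6 replicate 3 and to 9 without PyMT week 6 replicate 2, to 18 at adenoma/MIN without FVB week 8 replicate 2, and to 13 at early carcinoma without FVB week 10 replicate 2. Shares over all positions are not given for these other omissions, so a shift of the members cannot be told from one of the whole genome.

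By direction, 9 member positions were lower in PyMT and 6 higher at hyperplasia, where 6.01% and 2.62% of all positions were. At adenoma/MIN 19 were lower and 16 higher (7.10% and 3.20% of all positions), at early carcinoma 5 and 17 (8.42% and 4.39%), and at late carcinoma 6 and 17 (8.53% and 4.44%). The genome as a whole held more losses than gains at each stage. Among the members, gains were the larger count at the carcinoma stages, where losses were rarer than over all positions and gains were not more frequent. In late carcinoma 14 of the 17 gains lay in Grb10, and in early carcinoma 7 of the 17 lay in Nnat.

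The contrast with other positions in the same 35 to 65% window was wide, though the starting levels differed. Same-week FVB means were 40.2 to 41.8% at members, 50.8 to 52.6% at other autosomal positions and 43.0 to 44.0% at X-linked ones. Among the near-50 positions, 12 of 226 members (5.31%) were called at hyperplasia, against 44.5% of other autosomal and 15.7% of X-linked positions. At adenoma/MIN it was 31 of 237 (13.1%) against 49.7% and 27.2%, and the X-linked value was 18.7% without PyMT week 8 replicate 1. At early carcinoma it was 10 of 222 (4.50%) against 60.5% and 24.3%, and at late carcinoma 10 of 223 (4.48%) against 55.9% and 21.8%. The median absolute difference between PyMT and FVB was 3.93, 6.88, 5.83 and 6.13 points at the members and 16.3, 16.9, 20.7 and 20.96 points at the other autosomal positions. Chromosome X, where each female cell inactivates 1 copy, gave 8.27, 10.5, 8.34 and 8.40 points. These are descriptions, since positions of 1 gene share fragments and no test was made between the sets.

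**Figure D2:**
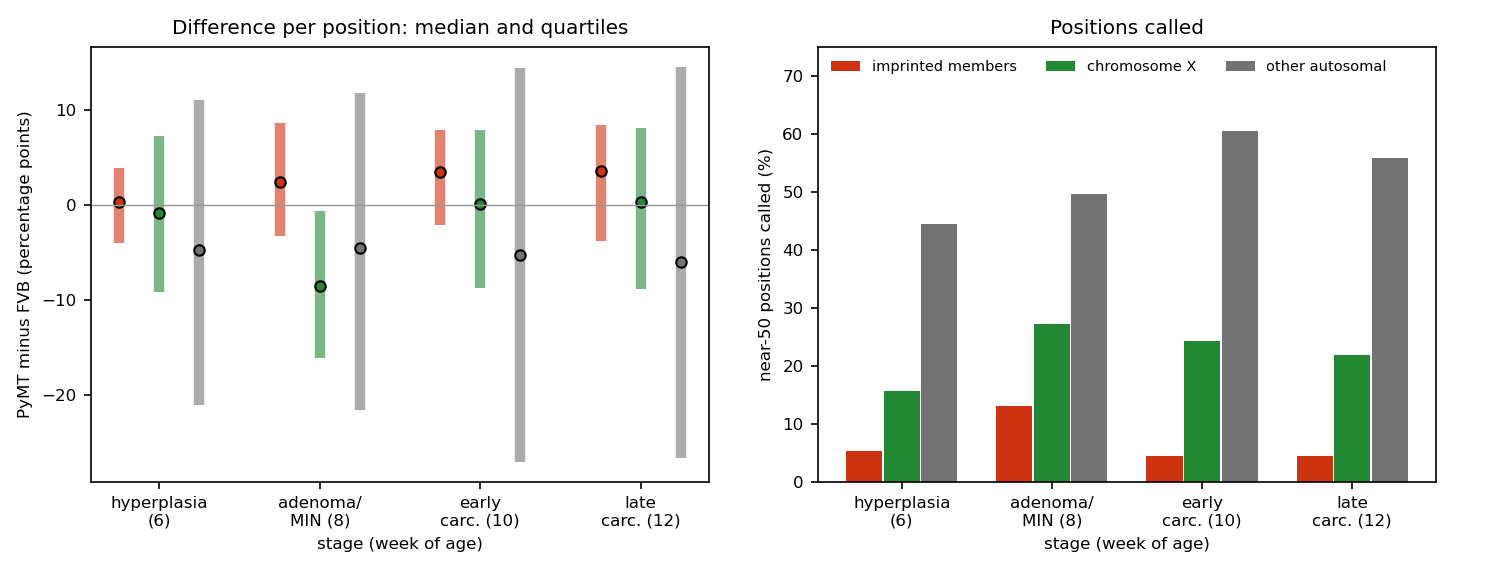
Left, PyMT minus FVB difference per near-50 position (percentage points) at each stage, as the median (circle) and quartiles (bar) over members, X-linked and other autosomal positions. Right, percent of these positions called. Members have the narrowest bars and the lowest columns at each stage, and the X-linked bar at adenoma/MIN includes the library with low coverage of chromosome X.

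With mice as the replicates, the mean over a gene's near-50 positions changed at 1 of the 10 members at 1 stage. In limma over all genes with at least 3 such positions, Snrpn was lower at adenoma/MIN, and none of the other 39 combinations of member and stage passed an adjusted p of 0.05. The genes called made up 34.0% of 1529 tested at hyperplasia, 44.7% of 1552 at adenoma/MIN, 52.2% of 1553 at early carcinoma and 49.9% of 1582 at late carcinoma. At an unadjusted p under 0.05 the members numbered 0, 1, 0 and 0 of 10, where 41.0, 52.1, 55.5 and 53.3% of all genes tested were. The members' median absolute difference was 2.37, 3.72, 3.27 and 3.16 points, against 9.90, 12.3, 13.4 and 14.2 points over all genes tested.

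The precision sets a limit on these statements. The 95% interval of a member's difference reached a median of 10.0, 8.95, 9.05 and 10.0 points to each side at the 4 stages. A change of a few points at a single gene was therefore not detectable with 2 or 3 mice a group, and larger ones could be missed. At hyperplasia the member intervals ran as low as -19.75 and as high as 20.6 points. Gene means simulated at that stage gave back 54.5% of genes planted with 20 points, over all 1529 genes. The lowest and highest member differences were -8.11 and 8.18 points at hyperplasia, and -15.1 and 8.43 points at adenoma/MIN. In early carcinoma they were -2.93 and 8.21 points, and in late carcinoma -7.35 and 7.36 points.

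**Figure D3:**
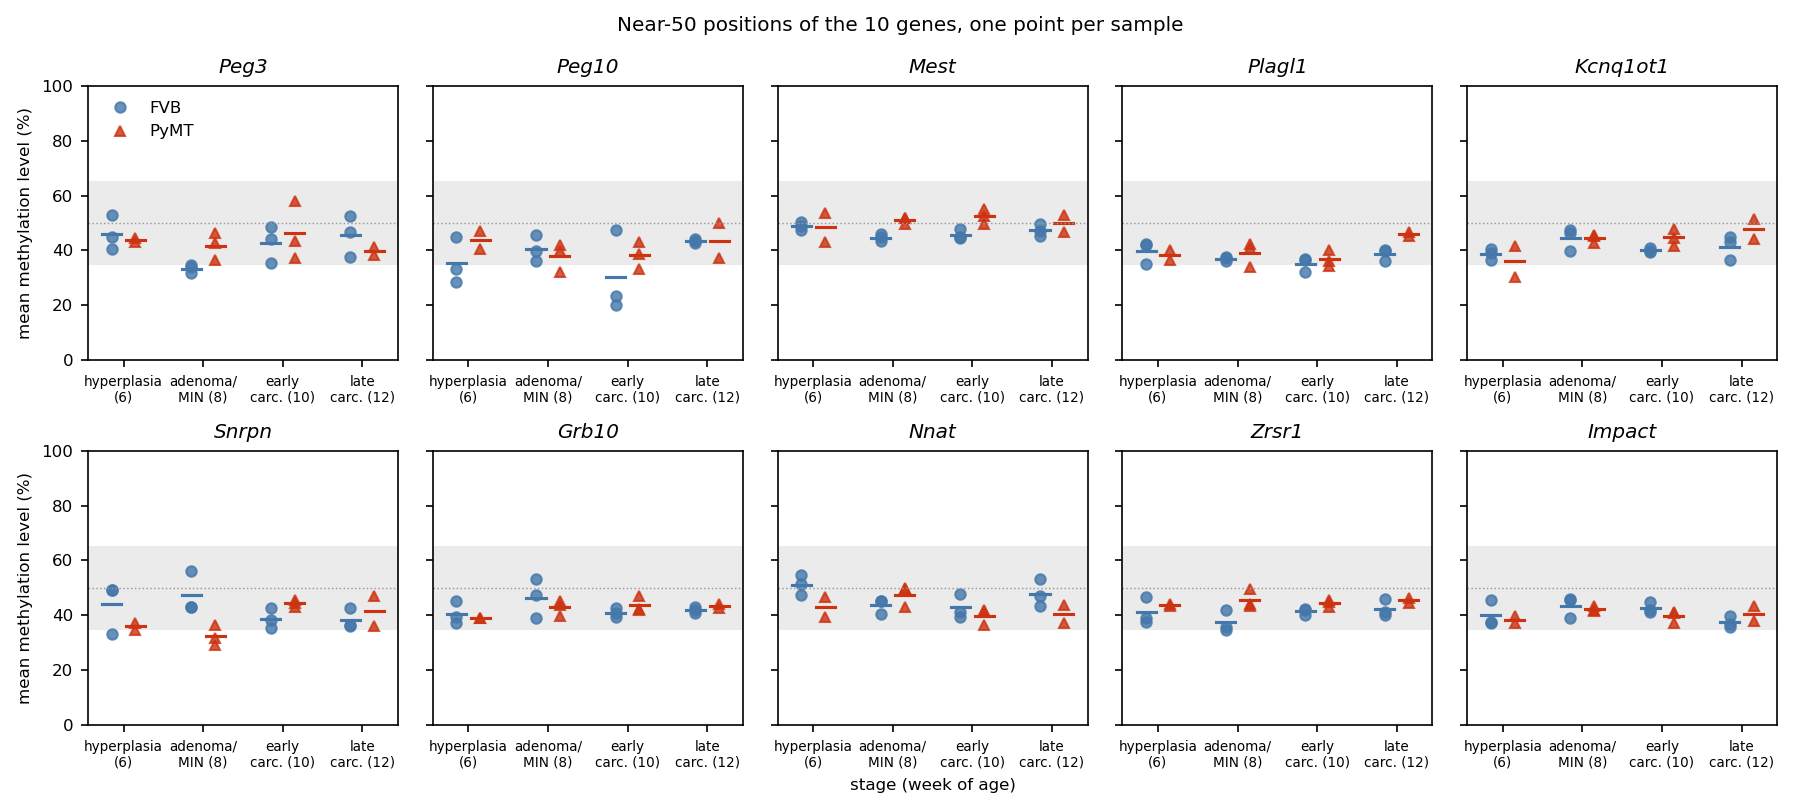
Mean methylation level (%) over the near-50 positions of each gene, 1 point per sample by stage (week of age), FVB as circles and PyMT as triangles, with group means as short lines and the 35 to 65% window in grey. Most samples lie between 30 and 60%, and the Snrpn triangles at adenoma/MIN all lie below the circles.

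**Figure D4:**
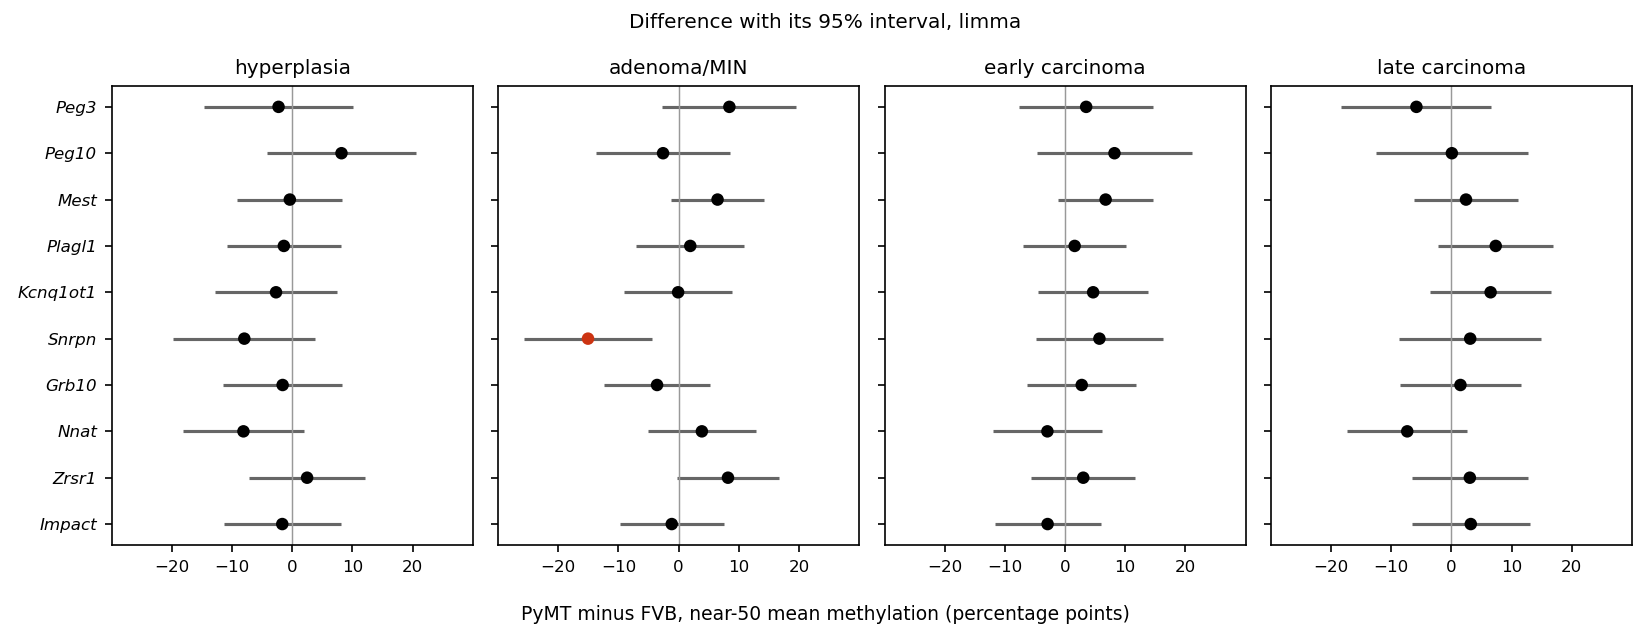
PyMT minus FVB difference of the near-50 mean (percentage points) for each gene and stage, with the limma 95% interval as a line. The red point, Snrpn at adenoma/MIN, is the combination that passed the adjusted p threshold.

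Snrpn encodes a protein of the small nuclear ribonucleoproteins that take part in splicing, and its upstream region is the imprinting centre of its chromosomal domain. At adenoma/MIN its 10 near-50 positions had means of 29.0, 36.4 and 31.6% in PyMT and 43.1, 56.2 and 43.0% in FVB. All PyMT mice lay below all controls. The difference was -15.1 points (SE 5.12, 95% interval -25.6 to -4.49, limma adjusted p = 0.0188). The call was lost without FVB week 8 replicate 2, the highest control (-10.7 points, adjusted p = 0.129), with reads pooled over positions (-8.58 points, adjusted p = 0.149), and at positions with at least 20 reads (-7.87 points, adjusted p = 0.203).

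Within Snrpn, groups of positions behaved unlike each other. The 6 positions from -30 to 146 bp of a TSS, at chr7:60005053-60005229, had means of 24.4, 26.2 and 35.15% in PyMT and 47.8, 65.7 and 48.8% in FVB at adenoma/MIN. At hyperplasia they had 29.8 and 31.8% in PyMT and 52.3, 55.4 and 36.3% in FVB. In both premalignant stages the PyMT mice lay below all controls. At early carcinoma the same positions had 38.5, 43.4 and 39.6% in PyMT and 34.6, 41.4 and 39.6% in FVB, and at late carcinoma 45.55 and 37.9% against 43.0, 31.7 and 30.9%, so that the strains overlapped. The 4 positions in the intron printed above, 548 to 619 bp from the TSS, averaged 39.4% ± 5.98 (SD, n = 12) in FVB and 43.5% ± 9.02 (SD, n = 10) in PyMT. Far upstream, 4 positions at chr7:60172304-60172492, outside the near-50 set, averaged 86.4% ± 2.57 in FVB and 73.4% ± 5.87 in PyMT, and the 10 PyMT mice (60.8 to 81.0%) lay below the 12 controls (82.4 to 90.8%). Of these, the position at 60172408 fell most at late carcinoma, by 29.3 points (q = 1.79e-12), with 47.6 and 59.8% in PyMT and 88.7, 84.6 and 82.1% in FVB.

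Nnat encodes neuronatin, a small membrane protein, and lies within Blcap. Its largest falls were at 3 neighbouring CpG positions upstream of the Nnat TSS (-1822 to -1774 bp), in an untranslated region of Blcap at chr2:157558256-157558304. Their mean was 5.70 and 17.6% in PyMT against 51.4, 55.9 and 59.5% in FVB at hyperplasia. It was 24.3, 3.64 and 9.44% against 42.9, 54.2 and 35.5% at adenoma/MIN. All PyMT mice lay below all controls at these stages and at the later ones. At early carcinoma the values were 9.57, 16.0 and 16.4% against 47.9, 49.9 and 47.3%, and at late carcinoma 2.80 and 21.3% against 46.8, 63.4 and 49.5%. Over all mice they averaged 12.7% ± 7.52 (SD, n = 10) in PyMT and 50.3% ± 7.41 (SD, n = 12) in FVB. These 3 were the only member positions called lower at all 4 stages. The largest difference at late carcinoma was at 157558304, with 3.39 and 22.1% in PyMT and 48.6, 64.5 and 63.3% in FVB, a fall of 46.4 points (q = 8.89e-25).

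Downstream of the Nnat TSS the pattern was mixed. The 17 positions from 20 to 400 bp downstream of the TSS, at a mean coverage of 37.0 reads, had 43.5, 41.3 and 43.3% in PyMT and 28.0, 25.5 and 27.2% in FVB at early carcinoma, where 7 were called higher. In that group, 157560106, singled out likewise, was called higher at adenoma/MIN by 34.4 points (q = 0.00329), at a mean coverage of 18.3 reads, with 70.4, 90.9 and 55.6% in PyMT and 47.4, 0 and 46.2% in FVB. At late carcinoma the strains overlapped in the group mean, with 40.7 and 42.0% against 48.0, 24.1 and 42.9%. The 9 positions from 1366 to 1781 bp averaged 45.4% ± 2.98 (SD, n = 10) in PyMT and 46.0% ± 4.39 (SD, n = 12) in FVB. One of them, 157561777, singled out after its values were seen, was called lower at late carcinoma (-20.8 points, q = 0.0047), with 37.2 and 41.8% in PyMT and 60.5, 58.2 and 62.9% in FVB. The gene's near-50 mean differed by -8.11 points at hyperplasia (limma adjusted p = 0.22) and by -7.35 points at late carcinoma (adjusted p = 0.233). At positions with at least 20 reads the difference was -11.1 points at early carcinoma (limma adjusted p = 0.0323) and -13.2 points at late carcinoma (adjusted p = 0.0251). That filter leaves out 157560106, for 1, so the mean rests on another mix of positions. At hyperplasia the 3 upstream positions averaged 11.7% in PyMT and 55.6% in FVB. The 17 positions downstream averaged 37.0% and 33.7%, and the 9 further ones 48.3% and 47.6%. At late carcinoma these 3 groups averaged 12.05, 41.4 and 41.2% in PyMT and 53.2, 38.3 and 45.0% in FVB. The large falls thus lay at the upstream positions. The groups include positions outside the near-50 set, and the near-50 mean without the 3 upstream positions was not tested.

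Mest encodes a protein with the fold of a hydrolase and is expressed from the paternal copy in embryonic tissues. Its 6 positions upstream of a TSS (-705 to -628 bp), at chr6:30732801-30732878, had 81.5, 85.7 and 78.2% in PyMT and 69.8, 60.5 and 70.9% in FVB at adenoma/MIN. At late carcinoma they had 81.9 and 79.3% against 65.9, 67.6 and 68.7%. At these stages all PyMT mice lay above all controls. At early carcinoma the strains overlapped, with 81.0, 72.5 and 69.9% against 57.1, 69.8 and 70.6%. At hyperplasia the PyMT mice lay below, with 65.05 and 63.9% against 67.5, 74.0 and 72.5%, and the Mest positions called in both directions at different stages were here. The position at 30732801 rose most at late carcinoma, by 27.7 points (q = 2.32e-10), from 50.5, 71.1 and 61.9% in FVB to 85.2 and 92.5% in PyMT. The 6 intronic positions printed above averaged 40.8% ± 7.36 (SD, n = 10) in PyMT and 41.9% ± 5.61 (SD, n = 12) in FVB, and 3 of them were called higher at hyperplasia.

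Grb10 encodes an adaptor that dampens signalling from insulin and growth factor receptors. Its intronic near-50 region fell into 2 groups of positions. The 39 positions at chr11:12026185-12026427 averaged 37.4% ± 3.97 (SD, n = 10) in PyMT and 39.1% ± 5.57 (SD, n = 12) in FVB, and 7 were called lower at adenoma/MIN. The 10 positions at chr11:12026767-12026881 averaged 54.6% ± 5.28 and 47.9% ± 4.90. Among the latter, the position at 12026833 was called higher at adenoma/MIN, early carcinoma and late carcinoma. At late carcinoma it had 59.4 and 87.2% in PyMT and 46.2, 53.1 and 60.4% in FVB, a difference of 20.6 points (q = 5.12e-06) with overlap between the strains.

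The main Grb10 start site was nearly unmethylated in FVB. Its 96 positions from -423 to 419 bp had means of 0.595, 1.64 and 0.736% in FVB and 3.97 and 2.77% in PyMT at late carcinoma. Over the stages the PyMT means were 1.58, 1.58, 2.34 and 3.37%, and the FVB means 0.887, 0.854, 1.12 and 0.989%. At this start site 8 positions were called higher at late carcinoma, among the 14 of the gene. Within 1 kb of a TSS, where these positions dominate, the Grb10 promoter mean rose by 1.49 points at early carcinoma (limma adjusted p = 0.00913) and by 2.49 points at late carcinoma (adjusted p = 0.000327). In the 2 kb window its difference was 0.808 points over the stages (SE 0.546, adjusted p = 0.313).

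**Figure D5:**
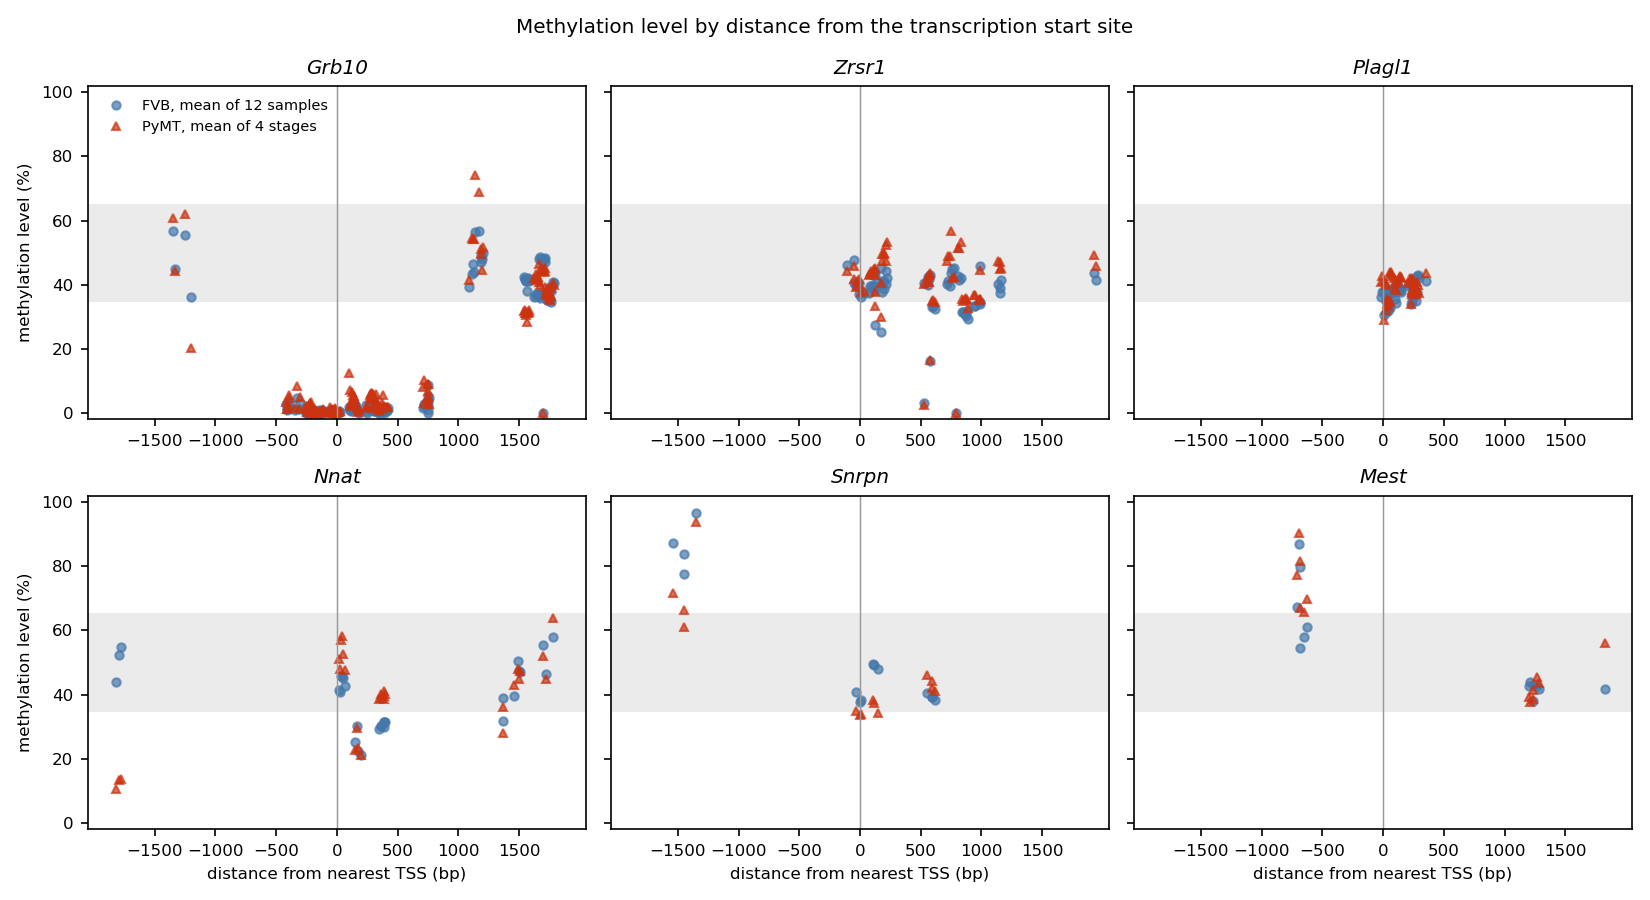
Methylation level (%) of each covered position against its distance from the nearest TSS (bp) in 6 of the genes, FVB (mean of 12 samples) as circles and PyMT (mean of the 4 stage means) as triangles, with the 35 to 65% window in grey. Symbols of the strains overlap at most positions, and they separate at the 3 upstream Nnat positions, at the upstream Snrpn positions and at some Mest positions.

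Zrsr1, a retrogene for a splicing factor that sits in an intron of Commd1, had a near-50 mean of 44.0, 49.6 and 43.5% in PyMT and 35.8, 34.7 and 42.0% in FVB at adenoma/MIN. All PyMT mice lay above all controls, by 8.20 points, with an adjusted p of 0.106 in limma. Of its 66 positions, 2 were called at any stage. At the other stages its means were 43.6, 44.5 and 45.5% in PyMT and 41.2, 41.5 and 42.4% in FVB.

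Plagl1, which encodes a zinc finger protein that can halt the cell cycle, had 48 positions in 1 block around its TSS. Its near-50 mean at late carcinoma was 45.4 and 46.6% in PyMT and 39.7, 36.1 and 40.2% in FVB, without overlap, and the difference of 7.36 points (SE 4.64) had a limma adjusted p of 0.211. The 4 positions of Plagl1 called at any stage were all higher in PyMT. The one called at late carcinoma, at 13091068 in the printed stretch, had 42.5 and 53.2% in PyMT and 41.8, 25.3 and 30.4% in FVB (15.2 points, q = 0.00792).

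Kcnq1ot1 is a noncoding RNA that silences neighbouring genes on the paternal chromosome. Its 19 positions averaged 41.3% ± 4.70 (SD, n = 10) in PyMT and 39.4% ± 3.04 (SD, n = 12) in FVB. The near-50 mean at early carcinoma was 41.8, 44.6 and 47.9% in PyMT and 40.9, 39.5 and 39.8% in FVB, and at late carcinoma 44.3 and 51.7% against 42.9, 36.7 and 44.8%. The 3 positions called were lower at hyperplasia, where PyMT replicate 2 had 30.4%.

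Peg3 encodes a zinc finger transcription factor and Peg10 a protein derived from a retrotransposon that is needed in the placenta. Peg3 was at 42.7, 46.2 and 36.6% in PyMT and 31.6, 33.9 and 34.6% in FVB at adenoma/MIN, where 4 of its 8 positions were called higher. All PyMT mice lay above all controls there, and the difference of 8.43 points had a limma adjusted p of 0.202. No position of Peg3 was called at the other stages, and its difference at late carcinoma was -5.82 points (95% interval -18.3 to 6.63). Peg10 had the widest spread among controls, with 47.4, 20.1 and 23.3% in FVB at early carcinoma against 38.8, 43.1 and 33.4% in PyMT. These means rest on 7 of its 12 positions, chosen by the controls of the other weeks. At 0 of the 7 did the week 10 FVB mean lie inside the window. Over all 12 positions the values were 46.2, 28.3 and 32.8% in FVB and 40.5, 46.9 and 41.4% in PyMT. Without FVB week 10 replicate 1, the Peg10 difference at early carcinoma over the 7 positions was 16.8 points (limma adjusted p = 0.0223), against 8.21 points with it (adjusted p = 0.302). The Peg3 positions are also within 2 kb of a TSS of Usp29, and the Peg10 positions of Sgce.

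Impact encodes a regulator of the translational response to amino acid shortage. It was the member with no position called at any stage by the logistic test, with 25 positions tested. At an unadjusted p under 0.05 it had 2, 4, 3 and 6 of 25 positions at the 4 stages, where 22.5, 25.4, 27.5 and 26.7% of all positions were under that p, and the overdispersion-corrected test called 0 as well, with 2, 3, 3 and 1 at an unadjusted p under 0.05. Its near-50 mean was 39.9 and 37.1% in PyMT against 45.7, 37.6 and 37.1% in FVB at hyperplasia, and 43.4 and 37.9% against 39.9, 36.7 and 35.7% at late carcinoma.

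Across all stages, 324 of the 393 member positions were not called at any stage and 69 were called at 1 stage or more, as were 20.3% of all positions. Grb10 held 24 of these, Nnat 12, Mest and Snrpn 7 each, Peg10 6, Peg3 and Plagl1 4 each, Kcnq1ot1 3 and Zrsr1 2. Called at 3 or more stages were 5 positions with losses, 3 in Nnat and 2 in Snrpn, and 3 with gains, 2 in Grb10 and 1 in Mest. Over all positions, 5.61% had losses and 2.25% had gains at 3 or more stages.

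The mean over all covered promoter positions, which uses no methylation value to choose them, was compared in the same way. Snrpn fell by 14.8 points at adenoma/MIN (limma adjusted p = 0.0135) and Zrsr1 rose by 7.50 points (adjusted p = 0.023). Both calls were lost with reads pooled over positions (adjusted p = 0.114 and 0.214) and without FVB week 8 replicate 2 (-11.2 points, adjusted p = 0.085, and 6.12 points, adjusted p = 0.114). Zrsr1 was also lost on the logit scale, at 20 reads, within 1 kb and without FVB week 8 replicate 1 or PyMT week 8 replicate 2, and Snrpn without PyMT week 8 replicate 3. No member passed at the other stages, where 0, 1 and 1 of the 10 members, and 20.8, 30.3 and 30.2% of all genes, had an unadjusted p under 0.05. The genes called made up 8.66, 17.3, 22.2 and 22% of 16407 tested at the 4 stages. For the mean of the 4 stage differences, 34.0% of genes were called, and the members called were Mest (4.11 points, SE 1.33, adjusted p = 0.0215), Snrpn (-6.30 points, SE 2.07, adjusted p = 0.0245) and Zrsr1 (3.62 points, SE 1.15, adjusted p = 0.0194). In an exact permutation test of strain within week, Mest (adjusted p = 0.0334) and Zrsr1 (adjusted p = 0.0137) passed, and Snrpn did not (adjusted p = 0.0542). No call among these 3 held with reads pooled over positions, where the differences were 3.08, -4.51 and 2.94 points, nor without PyMT week 12 replicate 3, where they were 3.46, -4.87 and 3.10 points. An F test of whether the difference varied between stages called 1.31% of genes and no member. The lowest member was Snrpn (adjusted p = 0.539), and no member had an unadjusted p under 0.05.

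The malignant transition was compared within PyMT, as weeks 10 and 12 against weeks 6 and 8, at positions near 50% in all 12 controls. No member passed, and 1.48% of 1551 genes did. Snrpn was the 1 member with an unadjusted p under 0.05, with a difference of 8.80 points (95% interval 0.412 to 17.2, adjusted p = 0.294). In FVB the same weeks differed by -7.13 points at Snrpn (adjusted p = 0.512).

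Coverage relative to each sample's median served as a readout independent of methylation. On the log2 scale the mean difference over the stages spanned up to 0.215 among the members, at Nnat (SE 0.0774, unadjusted p = 0.0117). In limma 0 of 16407 genes, or 0% of them, passed an adjusted p of 0.05, with 621 under an unadjusted 0.05, 1 of them a member.

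Among 12 further maternally methylated imprinted genes that do not share positions with the members, 10 could be tested at near-50 positions at 1 stage or more. The 3 with the largest mean of the stage differences were Nap1l5 (10.5 points), Peg12 (4.90 points) and Magel2 (4.49 points). The promoter means of the same 3 genes were higher over the stages, by 9.95, 7.98 and 5.78 points (limma adjusted p = 9.88e-05, 7.1e-05 and 0.00246). They had been picked by their near-50 differences in the same samples, and the positions partly coincide, so this is not separate evidence. For that mean, 3 of the 10 tested genes of the list were called, where 34.0% of 16407 genes were. Nap1l5, an imprinted retrogene, was the 1 gene of the list called at near-50 positions, at late carcinoma, with 64.8 and 65.9% in PyMT and 36.1, 44.4 and 44.5% in FVB. The difference was 23.7 points (SE 4.49, limma adjusted p = 0.000116), and the gene rose by 12.4 points between premalignant and malignant PyMT samples (adjusted p = 0.0468). Gnas, with the most near-50 positions of any autosomal gene, differed by 0.164, -0.00811, -0.709 and 0.828 points at the 4 stages, at 142 to 147 positions.

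Of 7 genes that set or keep imprints, 6 had a tested promoter. Zfp57, whose protein binds the methylated allele at imprinted regions, differed most, by 0.826 points over the stages (SE 0.16, limma adjusted p = 0.000448), at a level under 2% in all samples. Trim28, which encodes the corepressor that ZFP57 recruits, differed by -0.145 points (adjusted p = 0.0253). Of the 6 genes tested, 1 was called higher and 1 lower over the stages, where 34.0% of 16407 genes were called. ZFP57 recognises the hexamer TGCCGC with its CpG methylated. Counted on both strands in windows of 500 bases centred on the near-50 positions, it was present in 8 of the 10 members, 6 of them with at least 2 copies, and absent in Mest and Zrsr1. Of 1260 other autosomal genes with near-50 positions, 17.2% held it and 2.54% held at least 2. Of the 10 further imprinted genes, 5 held it. The members' windows were also richer in CpGs (median 34 against 13), and 23.8% of 24963 autosomal promoters held the hexamer in windows of that length centred on the TSS. The printed Grb10 and Plagl1 stretches hold 2 copies each. The 12 member positions inside a hexamer averaged 39.1% in FVB and 40.1% in PyMT, and the other 214 averaged 41.8% and 42.9%.

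Methylation at most tested promoters of cell type markers moved with strain in the same samples. All 4 epithelial marker promoters (Epcam, Krt8, Krt18 and Cdh1) were lower in PyMT over the stages, with differences from -15.8 to -1.83 points and a median of -2.33 points. Over all 16407 genes 34.0% were called for that mean, 2791 of them higher and 2781 lower. Of 4 adipocyte markers 2 were tested. Cidec was lower (-21.6 points), and the other was not called (0.622 points). Of 3 endothelial markers 2 were tested, and Pecam1 was higher (16.3 points) and Cdh5 lower (-16.0 points). The part of tissue composition in the differences at the members was not tested.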

How the data were processed

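Genomic DNA of mammary glands from 22 mice was profiled by ERRBS. The authors aligned reads to mm10 with Bismark (version not given in the sources used here), kept positions with at least 10 reads, and left out 2 outlier samples. The deposited coverage is a raw read count per position, without normalization, and the deposited values beside it are the percent of reads methylated and the percent unmethylated. Groups and weeks were taken from the sample labels. Same-group samples differed by more than counting noise (mean chi-square per position 1.85 to 3.53 in 20 pairs).

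Methylated and unmethylated reads were recovered as coverage times percent, rounded. All positions on chromosomes 1 to 19 and X fell on a CpG of GRCm38. Depth was 60.2 to 79.2 reads per position on average, and read-based tests cover counting error only. Promoters were 2 kb around curated RefSeq TSSs. Positions were tested by logistic regression and genes with at least 3 positions by limma (trend, percent scale, 8 groups in 1 fit), with Benjamini-Hochberg adjustment over all positions or genes. Reads simulated without variation between mice gave back 97.9% of positions planted with a 30-point change at early carcinoma (100000 positions). The mice did vary, so this is not the recovery of the read-based test on these data. Simulated gene means gave back 54.5% of genes planted with 20 points at hyperplasia (1529 genes).

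The members and lists were chosen with earlier results of these data known. All 10 members were named, with each member's called position of largest difference at late carcinoma. The 3 other imprinted genes and the maintenance gene with the largest mean differences were named too. One cell type marker list is not reported here. Other positions, and groups of positions with gaps of at most 200 bp, were described after their values were seen. Alternatives were other near-50 windows (40 to 60% and 30 to 70%), 20 reads, merged strands, 1 kb, Storey q-values, 25 points, overdispersion, a replicate block, a logit scale, pooled reads, permutation and leaving out each sample. Gene fits used limma 3.58.1 in R 4.3.3; position tests used SciPy 1.17.1 and NumPy 2.4.6 in Python 3.11.15, with tables handled in pandas 2.3.3 and figures drawn with matplotlib 3.10.9.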

Additional observations from a re-analysis of the deposited data

Results flagged for a closer look

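At the near-50 positions of Snrpn, all PyMT mice lay below all controls at adenoma/MIN and above all controls at early carcinoma, so that the strain difference moved by 20.8 points between these stages. That change was not tested at near-50 positions. The F test between stages on the Snrpn promoter mean had a limma adjusted p of 0.539.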

How the results depend on the processing

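The counts of member positions called at hyperplasia, adenoma/MIN, early and late carcinoma (15, 35, 22 and 23) became 4, 9, 3 and 5 at 25 points. At that threshold all 1140639 positions held 32085, 35617, 46187 and 52108 losses and 9737, 11941, 17691 and 20723 gains. With overdispersion the member counts were 3, 13, 7 and 9, and the shares of all positions 3.41, 4.28, 7.62 and 7.67%. Within 1 kb, where fewer positions count, 5, 17, 15 and 13 member positions were called. Shares over all positions or genes are not given for the 1 kb and replicate block settings. Nor are they given for leaving out single samples, apart from the positions called without PyMT week 8 replicate 1. Leaving out single samples gave 9 to 32, 18 to 45, 13 to 28 and 17 to 26. The extremes were without FVB week 6 replicate 3 (32), PyMT week 6 replicate 2 (9), FVB week 8 replicate 2 (18) and FVB week 10 replicate 2 (13). The difference in the share of positions inside the window became -10 points at adenoma/MIN with a 40 to 60% window and 5.91 points at early carcinoma within 1 kb. The number of members called at near-50 positions became 0 at adenoma/MIN with pooled reads and with 20 reads, 1 at early carcinoma with 20 reads, and 1 at late carcinoma with pooled reads and with 20 reads. Leaving out samples gave 0 to 1 at adenoma/MIN and 0 to 1 at early carcinoma. For promoter means, 2 members at adenoma/MIN became 1 on the logit scale, 0 with pooled reads and 1 with 20 reads, and 0 to 2 without single samples. Within 1 kb, 2 members were called at each carcinoma stage. The 3 calls on the mean of the stages became 0 with pooled reads and 0 to 3 without single samples.

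Same-numbered PyMT and FVB samples did not deviate together (mean r = -0.0034 over 10 pairs, -0.0391 to 0.0285), so no pairing by number was seen. Deviations were taken from group means of 2 or 3 mice, which ties the correlations of same-numbered and other pairs to each other. With the replicate block, 26, 36, 19 and 19 member positions were called. Among single genes, 28 calls were lost and 12 gained over all alternatives, and no called difference changed sign. The cause of these shifts was not tested. Groups of 2 or 3 mice limit what can be seen, as does a depth of 10 reads at the least covered positions.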
